A study of Mus musculus with 8 samples.

Results

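A set of 6 glucocorticoid-induced or metal-induced genes of mouse liver was described across sham-operated and regenerating livers: Sgk1, Tsc22d3, Fkbp5 and Lpin1, and the metallothionein genes Mt1 and Mt2. They were picked by symbol from the 34465 genes of the deposited table after results for all genes had been seen; all 6 passed the filter on low values that left 16443 genes for testing. Because the choice was selected on results of these same libraries, the values of the 6 genes are given as a description, and counts of limma calls among them are set beside those of all genes without being used as a test of the set.

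Whole-liver RNA was sequenced in 8 libraries, 2 in each of 4 groups. All mice were of the 129S4/SvJae/FVB background, aged 3 months and homozygous for floxed b-PDGFR (Pdgfrb), which encodes the beta-type PDGF receptor, so the controls carried the floxed alleles too. The groups were Cre-negative sham (GFAP Cre -/-), Cre-positive sham (GFAP Cre +/-), and Cre-negative and Cre-positive livers taken 72 h after partial hepatectomy. The Cre was driven by the GFAP promoter, which is active in hepatic stellate cells, a minor population of a whole liver, so the RNA came mostly from cells in which no deletion was intended. Whether the 2 libraries of a group came from separate animals is not stated in the labels, so the errors here measure the spread between these samples, which may be technical. In whole liver, fewer cells of a type and less RNA per cell cannot be told apart.

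Glucocorticoids bind the glucocorticoid receptor, which leaves its chaperones, enters the nucleus and activates genes through response elements. In liver these include enzymes of amino acid and glucose metabolism and genes that feed back on hormone signalling. Metallothioneins are small cysteine-rich proteins that hold zinc and copper. Their genes are switched on by the zinc-sensing factor MTF1, which binds metal response elements, and also by glucocorticoids and by cytokines of the acute phase response. Surgery itself is known to raise circulating glucocorticoids, and sham-operated animals have had surgery too; hormone levels were not analysed here.

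Values are a normalized signal per gene, whose sequencing depth is unknown. Log2 fold changes are on the log2(signal + 1) scale, with a standard error (SE) or 95% interval from 1 limma model over all 8 libraries, n = 2 libraries per group; ± marks the SD of 2 libraries. The summed signal lay between 8617664 and 11583777 per library. Pdgfrb was at 49.8 and 63.3 (Cre-negative sham), 59.4 and 46.0 (Cre-positive sham), 122.6 and 70.5 in Cre-negative hepatectomy livers, with 63.1 and 99.9 in their Cre-positive counterparts, so its whole-liver level does not check the genotype labels. Gfap was at 2.92 to 7.35 in the Cre-negative and 0.189 to 3.04 in the Cre-positive libraries. Cre-positive hepatectomy replicate 2 stood apart by base composition: relative to the sham mean, the 290 genes below 40% GC had a median log2 difference of -2.17 there and the 2687 genes at or above 55% GC one of 0.61. The 6 genes have transcripts of 48.4% to 55.1% GC. The tissue label fits its markers: the 6 hepatocyte markers summed to 106969 or more in every library, and the 3 skeletal muscle markers measured summed to at most 5.61.

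Of the 6 genes, Lpin1 was lower after hepatectomy in both genotypes and Sgk1 was highest in the Cre-negative sham livers alone. Fkbp5 was low in the Cre-negative hepatectomy livers and Mt1 was higher there than in sham. Replicates differed widely in every group for Tsc22d3, and in the Cre-negative hepatectomy pair for Mt2. The 4 glucocorticoid-induced genes therefore did not share 1 pattern over the 8 libraries.

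**Figure D1:**
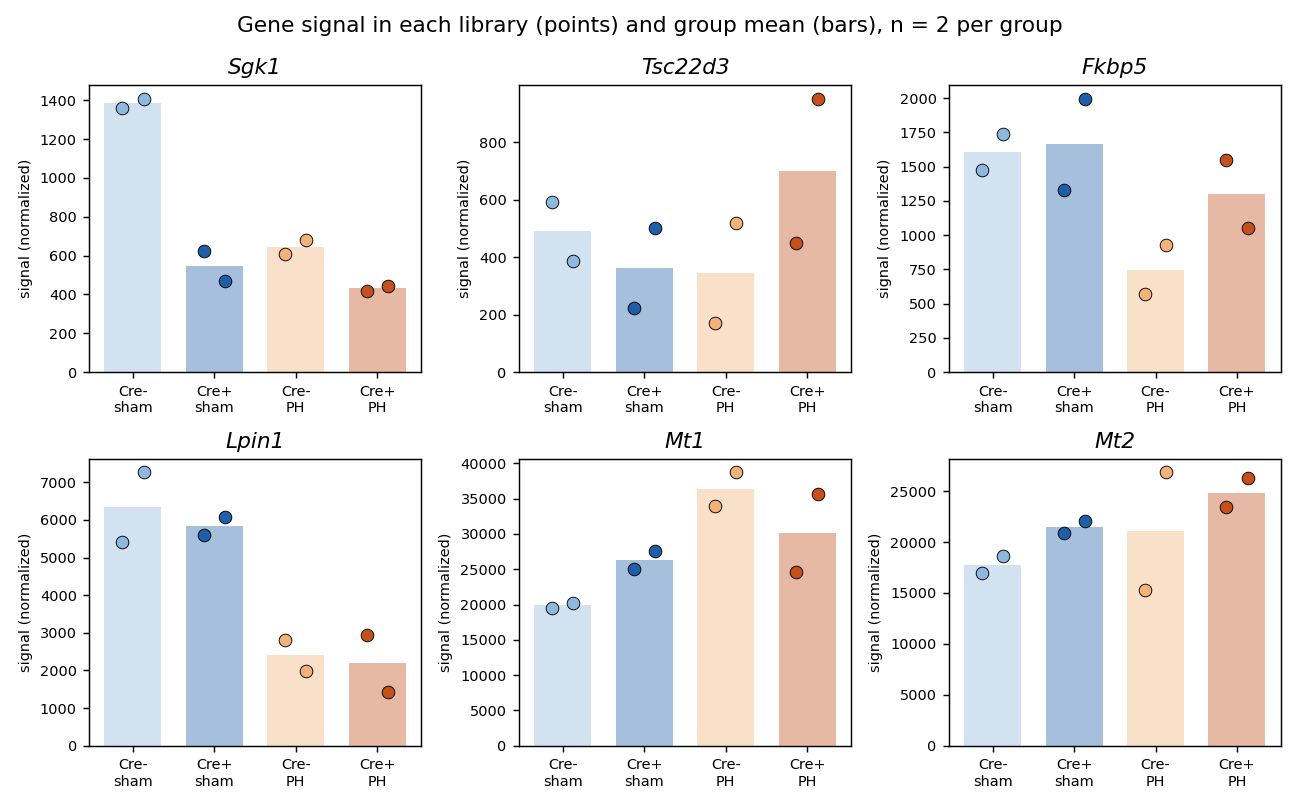
Signal of each of the 6 genes in every library (points; vertical axis, normalized signal on a linear scale) with the mean of the 2 libraries of each group (bars). Lpin1 lies at 5417 or more in the 4 sham libraries and at 2951 or less in the 4 hepatectomy libraries, while Sgk1 reaches 1363 and 1409 in Cre-negative sham and at most 678 elsewhere.

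Lpin1 encodes lipin 1, a phosphatidate phosphatase of triglyceride synthesis that also acts as a nuclear coactivator of fatty acid oxidation genes and is induced in liver by fasting and glucocorticoids. Its signal was 5417 and 7262 in Cre-negative sham livers, and 5609 and 6075 in the sham livers with Cre. The hepatectomy pair without Cre had 2818 and 1995, and the pair with Cre had 2951 and 1425. All 4 hepatectomy libraries lay below all 4 sham libraries, and the genotypes overlapped within each operation. The log2 fold change was -1.46 (SE 0.27) averaged over genotypes, -1.40 in Cre-negative and -1.51 in Cre-positive livers. The difference of these responses was -0.11, with a 95% interval of -1.37 to 1.16 that covers differences in either direction. Against the median of genes of like GC content (50 to 55%), the Lpin1 log2 differences were -1.22 and -1.70 without Cre and -1.03 and -2.49 with Cre. The lowest value stood in Cre-positive hepatectomy replicate 2, the library that differed in base composition. There the genes of like GC content had a median log2 difference from sham of 0.41, and Lpin1 had one of -2.09. Without that library the averaged log2 fold change was -1.19.

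Sgk1 encodes a serum- and glucocorticoid-regulated kinase, which acts downstream of PI3K and on ion channels and transporters. Its signal was 1363 and 1409 in Cre-negative sham, against 622 and 469 in Cre-positive sham libraries. The hepatectomy pair without Cre had 607 and 678, and the pair with Cre had 417 and 446. The Cre-negative sham libraries stood above the other 6, whose highest value was 678. Ordered by group mean, the levels were 1386 ± 32.7 in Cre-negative sham, 642 ± 50.1 in Cre-negative hepatectomy, 546 ± 108 in Cre-positive sham and 431 ± 20.4 in Cre-positive hepatectomy; the middle groups overlapped. Within sham livers the genotype contrast (Cre-positive minus Cre-negative) was -1.36 (SE 0.23, 95% interval -1.89 to -0.82), with a ratio of means of 0.394. This interval is not adjusted over all genes, and the contrast did not pass by limma with that adjustment. The genotype contrast after hepatectomy was -0.57 (95% interval -1.11 to -0.04). Hepatectomy against sham gave -1.11 (95% interval -1.65 to -0.57) in Cre-negative and -0.33 (95% interval -0.86 to 0.21) in Cre-positive livers. The difference of these responses was 0.78 (SE 0.32), with an unadjusted 95% interval of 0.02 to 1.54. It did not pass by limma with adjustment over all genes. Both comparisons of Cre-negative livers share the same sham libraries, so they are not independent views of the gene.

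Fkbp5 encodes FKBP51, a co-chaperone of HSP90 that lowers the hormone affinity of the glucocorticoid receptor and is itself induced by it. Its signal was 1473 and 1741 in Cre-negative sham livers, and 1328 and 1996 in the sham livers with Cre. The hepatectomy pair without Cre had 569 and 927.5, and the pair with Cre had 1545 and 1049. By signal both Cre-negative hepatectomy libraries lay below the other 6, and the sham groups overlapped. Against the median of genes of like GC content (50 to 55%), the Fkbp5 log2 differences were -1.62 and -0.90 without Cre. With Cre they were -0.06 and -1.03. On that scale Cre-positive hepatectomy replicate 2, the library that differed in base composition, lay below Cre-negative hepatectomy replicate 2. The part of base composition in the Fkbp5 values was not tested. The log2 fold change of hepatectomy was -1.14 (95% interval -1.96 to -0.32) in Cre-negative and -0.35 (95% interval -1.17 to 0.46) in Cre-positive livers. The interval of the difference between these responses, -0.37 to 1.94 around 0.79, includes 0. Cre-positive against Cre-negative livers gave 0.81 (95% interval -0.01 to 1.63) after hepatectomy and 0.02 in sham. The summed signal of 6 hepatocyte markers was also lowest in the Cre-negative hepatectomy libraries, at 106969 and 168274 against 180173 to 248017 in the other libraries. These markers did not all move alike. In Cre-negative livers 2 of them had a positive log2 fold change for hepatectomy, and the median was -0.29. Their part in the Fkbp5 values was not tested.

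Tsc22d3 encodes GILZ, the glucocorticoid-induced leucine zipper, an anti-inflammatory mediator made in many cell types including lymphocytes. Its signal was 593 and 385 in Cre-negative sham livers, and 222 and 500.0 in the sham livers with Cre. The hepatectomy pair without Cre had 169 and 519, and the pair with Cre had 448 and 951.5. The replicates of a group differed by 1.54 to 3.07 times, in each group more than those of the other 5 genes, and every pair of groups compared overlapped. Averaged over genotypes the log2 fold change was 0.14 (95% interval -0.94 to 1.22), and it was -0.02 with median-of-ratios scaling of the libraries. Within genotypes hepatectomy gave -0.69 (95% interval -2.21 to 0.84) in Cre-negative and 0.97 (95% interval -0.56 to 2.49) in Cre-positive livers, intervals wide enough to hold a change of some size in either direction or none. The 9 lymphocyte markers summed to 15.4 to 22.6 in sham libraries, 28.6 and 43.6 for hepatectomy without Cre, and 8.48 and 36.5 for hepatectomy with Cre. Their part in the Tsc22d3 values was not tested.

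The metallothionein genes lie next to each other on chromosome 8. Their promoters are shown because both are textbook targets of MTF1 and the 2 genes nevertheless kept no fixed ratio in these livers. The windows are the 250 bases before and 50 bases after the annotated start (RefSeq, GRCm38.p6, plus strand): chr8:94172368-94172667 for Mt2 and chr8:94178839-94179138 for Mt1. Capitals mark the core of the metal response element, searched as TGCACNC or TGCGCNC on both strands.
Mt2: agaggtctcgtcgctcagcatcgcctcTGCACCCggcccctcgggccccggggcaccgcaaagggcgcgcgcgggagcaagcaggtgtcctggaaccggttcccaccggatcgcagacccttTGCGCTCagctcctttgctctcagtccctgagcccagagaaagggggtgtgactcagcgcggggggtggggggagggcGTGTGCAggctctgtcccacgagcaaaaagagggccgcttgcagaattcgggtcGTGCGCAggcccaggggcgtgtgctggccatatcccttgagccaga
Mt1: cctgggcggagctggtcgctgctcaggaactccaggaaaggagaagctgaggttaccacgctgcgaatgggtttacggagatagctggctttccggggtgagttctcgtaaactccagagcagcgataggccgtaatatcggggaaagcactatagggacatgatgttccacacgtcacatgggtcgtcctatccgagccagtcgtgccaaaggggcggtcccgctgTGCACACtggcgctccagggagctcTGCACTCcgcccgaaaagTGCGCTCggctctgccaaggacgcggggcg
The Mt2 window holds 4 core matches, 2 on each strand, and the Mt1 window holds 3, all on the strand shown. Among 32851 promoter windows of the same length, 25.7% hold at least 1 such match, 1.97% at least 3 and 0.517% at least 4. The other 4 genes have 11 windows in the same reference, of which 1, a window of Sgk1, holds a match. The hexamer AGAACA, a core of the glucocorticoid receptor element, was found 3 times in 1 Sgk1 window and once each in 2 other Sgk1 windows, the Lpin1 window and 1 of 3 Tsc22d3 windows; 19% of all windows hold it at least once and 0.31% at least 3 times. A match is a stretch of letters, not a measured binding site, and elements outside these windows were not searched.

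Mt1 was at 19577 and 20267 in Cre-negative sham livers, and 24989 and 27534 in the sham livers with Cre. The hepatectomy pair without Cre had 34023.5 and 38723, and the pair with Cre had 24681 and 35642. The Cre-negative hepatectomy libraries lay above all sham libraries, while Cre-positive hepatectomy replicate 1 lay among the sham values. The log2 fold change of hepatectomy was 0.87 (95% interval 0.22 to 1.51) in Cre-negative and 0.18 (95% interval -0.47 to 0.82) in Cre-positive livers. The interval of their difference, -1.60 to 0.23 around -0.69, includes 0. With 55.1% GC, Mt1 stood at the lower edge of the class of genes at 55% or more. The median log2 difference of that class from sham was 0.41, 0.30, -0.08 and 0.61 in the 4 hepatectomy libraries. Relative to those medians Mt1 was higher by 0.16 and 0.46 without Cre and by 0.19 and 0.03 with Cre. The neighbouring class of 50 to 55% had medians of 0.11, 0.10, -0.002 and 0.41 in the same libraries, so these differences depend on the class edge. The part of base composition in the Mt1 values was not tested.

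Mt2 was at 16956.5 and 18606 in Cre-negative sham livers, and 20923 and 22109 in the sham livers with Cre. The hepatectomy pair without Cre had 15247 and 26839.5, and the pair with Cre had 23472.5 and 26244. The Cre-negative hepatectomy libraries held both the lowest and the highest value of the series. The log2 fold change of hepatectomy was 0.19 (95% interval -0.55 to 0.93) in Cre-negative and 0.21 (95% interval -0.53 to 0.95) in Cre-positive livers. With median-of-ratios scaling the Cre-negative value was -0.04. Within sham livers both metallothionein genes were higher in Cre-positive than in Cre-negative libraries without overlap, by 0.40 (95% interval -0.25 to 1.04) for Mt1 and 0.28 (95% interval -0.46 to 1.02) for Mt2.

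The ratio of Mt1 to Mt2 signal was 1.15 and 1.09 in Cre-negative sham livers, and 1.19 and 1.25 in the sham livers with Cre. It was 2.23 and 1.44 in Cre-negative hepatectomy and 1.05 and 1.36 in Cre-positive hepatectomy libraries. The Cre-negative hepatectomy ratios were the 2 highest, and the first of them came from the library with the lowest Mt2. Over the 8 libraries, which share groups and processing, Mt1 and Mt2 correlated with r = 0.47 on the log2 scale, given as a description. Exactly equal deposited values recurred among these transcripts: Mt1-201 in Cre-negative sham replicate 1 and Mt2-201 in Cre-negative sham replicate 2 were both 18606.32, and Mt1-201 was 24032.15 in both Cre-positive sham replicate 1 and Cre-positive hepatectomy replicate 1. Mt1-201 in Cre-positive sham replicate 2 and Mt2-201 in Cre-negative hepatectomy replicate 2 were both 26839.45. How such equal values arose is not stated in the labels or file headers, and differences between metallothionein values are to be read with that limit.

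The counts over the 6 genes stand beside the same counts over all 16443 genes tested, and nothing is read from them because the genes were chosen with these contrasts known. By limma, 4 of the 6 had an unadjusted p under 0.05 for hepatectomy averaged over genotypes, beside 3917 of the 16443 genes tested. At a Benjamini-Hochberg adjusted p under 0.05, 1 of the 6 (Lpin1, lower) passed in this contrast, where 4.49% of all genes passed. The count was 0 (2 to 4 at an unadjusted p under 0.05) without any 1 sham library or either Cre-negative hepatectomy library, and 0 (3 at an unadjusted p under 0.05) with no filter on low values. Median-of-ratios scaling gave 2, and leaving out Cre-positive hepatectomy replicate 1 or 2 gave 4 or 2 respectively. In the other contrasts 0 of the 6 passed by limma, against 1.11% of all genes for hepatectomy without Cre, 0.943% for hepatectomy with Cre, 0.00608% for genotype in sham, 0.0182% for genotype after hepatectomy and 0.0122% for the difference of responses. At an unadjusted p under 0.05 the numbers of the 6 were 4, 1, 1, 1 and 1 in that order. Those of all 16443 genes were 3509, 2219, 146, 3009 and 1330. Groups did not overlap for 1 lower gene (Lpin1) and 0 higher genes averaged over genotypes, where 6.2% and 11.2% of all genes were so placed. In Cre-negative livers 3 genes (Sgk1, Fkbp5, Lpin1) were lower and 1 (Mt1) higher after hepatectomy without overlap, against 23.3% and 39.7% of all genes. In Cre-positive livers 2 (Sgk1, Lpin1) were lower and 1 (Mt2) higher, against 19.5% and 23.9%. For genotype, 1 (Sgk1) was lower and 2 (Mt1, Mt2) higher in sham, against 19.4% and 12.1%, and 1 (Sgk1) was lower and 1 (Fkbp5) higher after hepatectomy, against 26.3% and 14.2%. The median log2 fold change of the 6 was -0.29 averaged over genotypes against 0.12 for all genes, -0.90 against 0.21 in Cre-negative and -0.07 against 0.02 in Cre-positive livers. Median-of-ratios scaling moved the median of all genes to -0.03, -0.002 and -0.06 in these 3 contrasts, so a fold change is best read relative to that median.

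**Figure D2:**
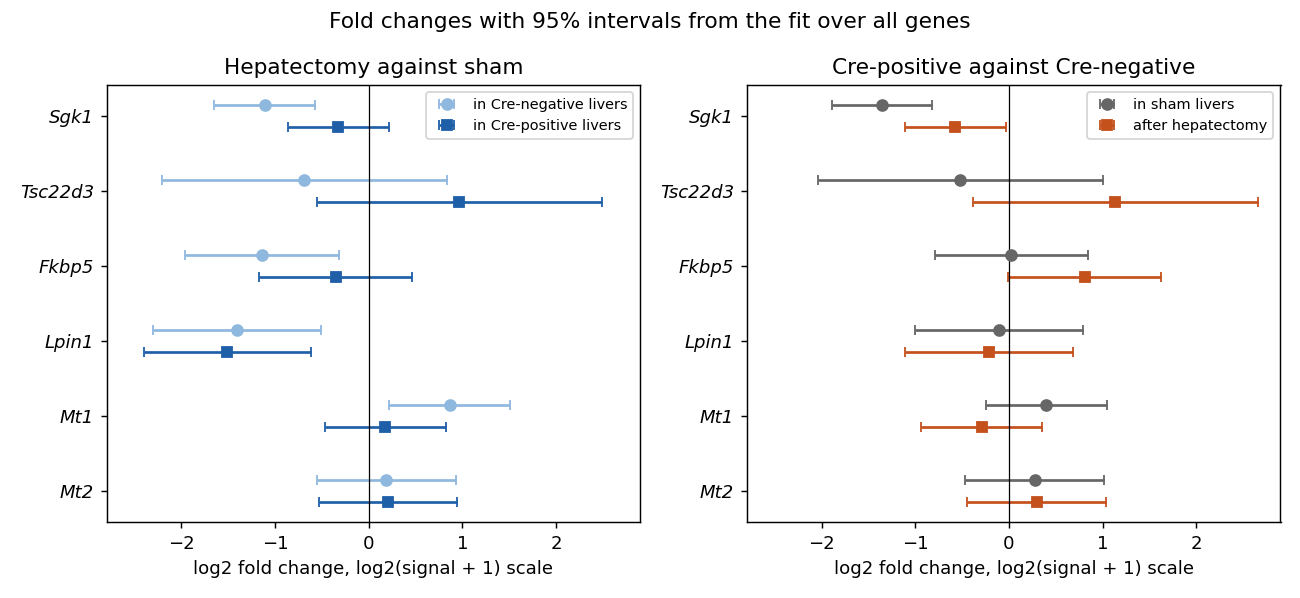
Log2 fold change of each of the 6 genes (horizontal axis, log2(signal + 1) scale) for hepatectomy against sham within each genotype (left) and genotype within each operation (right). Points are estimates and bars 95% intervals, not adjusted over all genes. Lpin1 lies at -1.40 and -1.51 for hepatectomy, and the Sgk1 interval for genotype in sham runs from -1.89 to -0.82.

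Within the genes, the deposited isoform values separated the Cre-negative hepatectomy libraries from the other 6. Transcript Lpin1-201 was at 985 and 975 in those libraries, 35.0% and 48.9% of the Lpin1 signal, and between 0.00077 and 1.69 in the others. Lpin1-202 held 64.8% to 78.1% of the signal elsewhere and 56.7% and 40.9% in these. Lpin1-203 was at 1313 to 1587 in sham, at 235 and 204 in Cre-negative hepatectomy and at 722 and 499.9 in Cre-positive hepatectomy libraries. Fkbp5-003 was at 0.014 and 12.1 in Cre-negative hepatectomy and between 121 and 207 in the others, and Fkbp5-001 held 98.6% and 97.1% of the gene there against 81.3% to 83.9%. Sgk1-008 was at 0.022 and 7.70 against 26.2 to 199, and Sgk1-007 at 0 and 14.5 against 35.8 to 97.1. Sgk1-001 held 95.3% and 91.3% of the signal against 64.0% to 81.1%. Tsc22d3-003, named here because of its values, was at 79.9 and 46.5 against 0.922 to 7.09, and Tsc22d3-005 at 0.257 and 25.8 against 29.0 to 239.8. Mt1-201 held 93.3% or more of the Mt1 signal in every library, and Mt2 has 1 listed transcript.

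Isoforms placed in this way were counted over the whole table, with limits set after the values were seen. Of 96792 isoforms, 35 were at 50 or more in both Cre-negative hepatectomy libraries and under 5 in the other 6, against 0 for Cre-negative sham, 1 for Cre-positive sham and 3 for Cre-positive hepatectomy counted alike. Conversely 105 were under 5 in both Cre-negative hepatectomy libraries and at 50 or more in the other 6, against 0, 0 and 2. Isoform values of this kind are model estimates, and no label or header says whether these libraries were quantified differently. Group membership and any difference in quantification cannot be told apart for these transcripts. The gene level signal of Fkbp5 also set Cre-negative hepatectomy apart and stands beside this pattern. So does that of Lpin1, of which Lpin1-201 made up 35.0% and 48.9% in these libraries. The Lpin1 overlap between genotypes and its difference of responses include that transcript. The part of the isoform pattern in the gene level values was not tested.

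**Figure D3:**
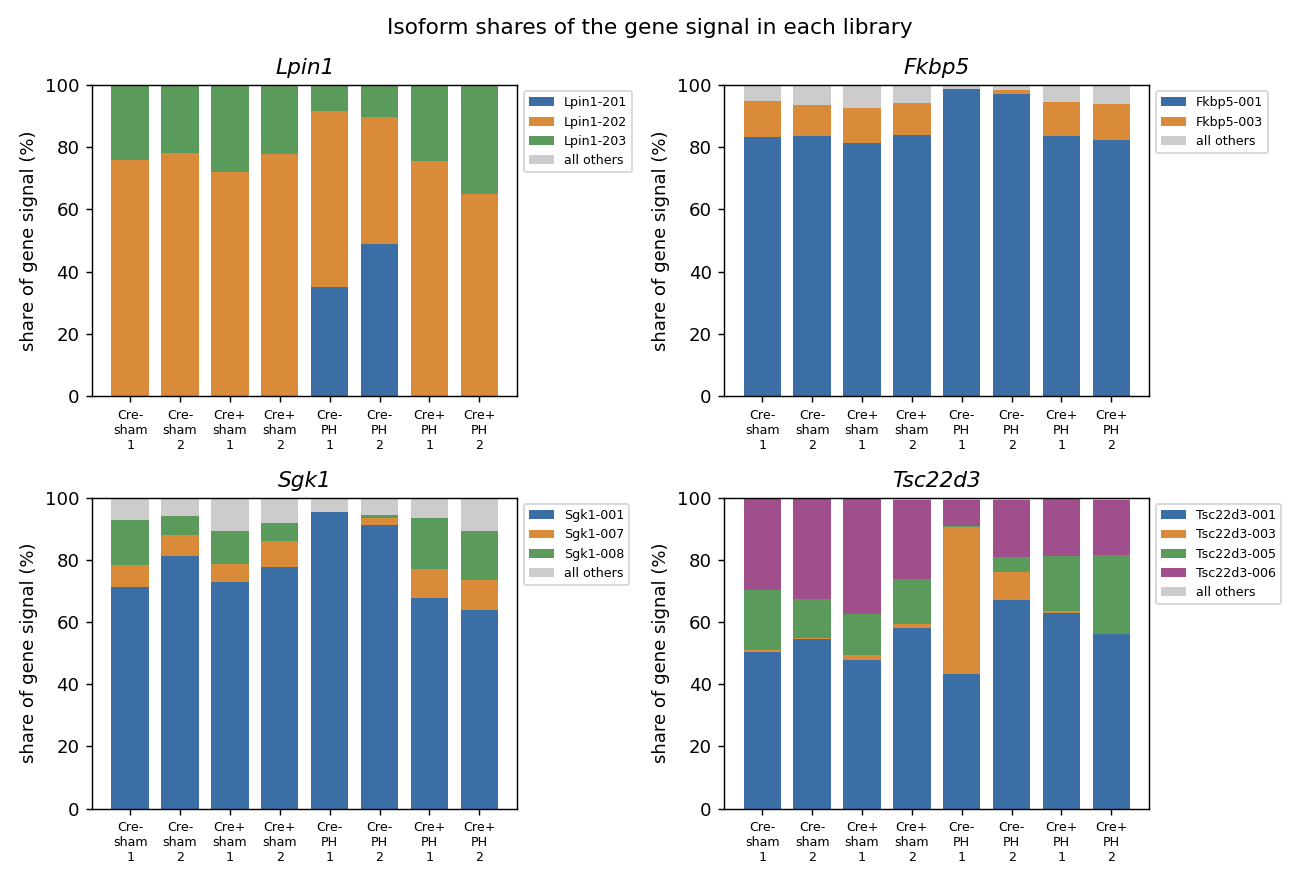
Share of the gene signal (vertical axis, percent) held by each transcript of Lpin1, Fkbp5, Sgk1 and Tsc22d3 in the 8 libraries (bars; Cre- and Cre+ for genotype, PH for hepatectomy). Lpin1-201 takes 35.0% and 48.9% in both libraries labelled Cre- PH and is at most 0.119% in the others.

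Around the 6 genes, other glucocorticoid-induced genes moved in both directions, most of them downward. Of 24 tested, 2 rose and 2 fell for hepatectomy averaged over genotypes by limma (adjusted over all genes), where 4.49% of all genes passed. An unadjusted p under 0.05 was found for 13 of the 24, beside 3917 of all 16443 genes. These numbers for all genes also stand beside the averaged counts of the lists below. Of the 24, 6 had a positive fold change, and the median was -0.57 against 0.12 for all genes. Igfbp1 and Cdkn1a were known from earlier results of these data when the list was made. Tat, tyrosine aminotransferase and a classical hormone-induced enzyme of liver, fell by 1.08 on the log2 scale (SE 0.21, limma adjusted p = 0.0356), with 49007 to 72107.5 in the sham and 23635 to 38372 in the hepatectomy libraries. Igfbp1, which binds insulin-like growth factors in the circulation, fell by 1.45 averaged over genotypes (SE 0.17, limma adjusted p = 0.00711). Its values lay on opposite sides in the 2 genotypes: sham livers without Cre had 6883 and 5838 and the matching hepatectomy livers 7883 and 8615, while sham livers with Cre had 5192 and 3788 and the matching hepatectomy livers 436 and 480.3. Cdkn1a, the cell cycle inhibitor p21, rose by 2.31 (SE 0.37, limma adjusted p = 0.0197) and Angptl4, an inhibitor of lipoprotein lipase, by 0.73 (SE 0.15, limma adjusted p = 0.0423). Within genotypes, Angptl4 rose in Cre-negative livers by 1.27 (SE 0.21, limma adjusted p = 0.0474). In Cre-positive livers Igfbp1 fell by 3.27 (SE 0.24, limma adjusted p = 0.00733) and was lower in Cre-positive than in Cre-negative livers after hepatectomy by a log2 difference of -4.17 (SE 0.24, limma adjusted p = 0.00668).

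Of 15 tested genes of the receptor, its chaperones and steroid handling, 0 rose and 1 fell by limma in the averaged contrast, with 4 at an unadjusted p under 0.05 and a median of -0.32. The gene that fell was Hsd11b1, the enzyme that regenerates active glucocorticoid within hepatocytes. Its signal was 6457 and 5717 in Cre-negative sham, 5613 and 5281 in Cre-positive sham, 2175 and 2875 in Cre-negative hepatectomy and 2848 and 2587 in Cre-positive hepatectomy libraries. All 4 hepatectomy libraries lay below all 4 sham libraries, and the log2 fold change was -1.14 (SE 0.17, limma adjusted p = 0.0142). Nr3c1, the glucocorticoid receptor gene, singled out after its values were seen, was at 256 to 294 in sham and at 121, 167, 237 and 36.5 in the hepatectomy libraries, and did not pass (log2 fold change -1.27, SE 0.53, limma adjusted p = 0.202).

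In the metallothionein and zinc list of 14 tested genes, 1 rose and 0 fell by limma, with 3 at an unadjusted p under 0.05 and a median of -0.14. The 1 that rose, Mt4, a metallothionein of stratified epithelia, was listed at 0 in all 4 sham libraries and at 4.37, 6.47, 0.785 and 0 in the hepatectomy libraries (limma adjusted p = 0.0462), and its call was lost with a pseudocount of 5 or with median-of-ratios scaling. Mtf1, the zinc-sensing activator, was at 53.0 to 69.2 in sham and 57.5 to 75.4 after hepatectomy. Slc30a1, a zinc exporter and MTF1 target, was at 54.0 to 73.3 in sham and 20.3 to 43.6 after hepatectomy, lower in all 4 libraries without passing (log2 fold change -1.03, SE 0.30, limma adjusted p = 0.106). Both were singled out after their values were seen; Slc30a1 and Mt1 stood on opposite sides of sham in the Cre-negative hepatectomy libraries.

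Genes of the oxidative stress response driven by NRF2, which can accompany metallothionein induction, had 4 of 12 rise and 0 fall by limma, with 6 at an unadjusted p under 0.05 and a median of 0.60 against 0.12 for all genes. Gsta1, a glutathione transferase, rose by 2.98 (SE 0.45, limma adjusted p = 0.0166), with 9.09 to 38.4 in sham and 251, 440.5, 98.5 and 80.0 after hepatectomy. Gstm3 rose by 1.35, Srxn1, which repairs oxidized peroxiredoxins, by 0.98 and Nqo1, a quinone reductase, by 1.49 (limma adjusted p = 0.0229, 0.0391 and 0.0442). In Cre-negative livers alone Gsta1 rose by 4.07 (SE 0.63, limma adjusted p = 0.0413). Of 16 acute phase genes, which respond to the same cytokines as metallothioneins, 0 passed by limma in the averaged contrast (3 at an unadjusted p under 0.05, median 0.14). Among them Hpx, the haem carrier hemopexin, was at 97382 to 177553 in sham, 101041 and 130022 in Cre-negative hepatectomy and 341076 and 1452240 in Cre-positive hepatectomy libraries. The value of 1452240 stood in replicate 2, the library that differed in base composition, whose summed signal was 11583777. Fgg, a fibrinogen chain, was at 70970 to 103607 in sham and 36280 to 112278 after hepatectomy.

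Of 20 relatives and partners of the 6 genes, 1 rose and 1 fell by limma in the averaged contrast (8 at an unadjusted p under 0.05, median 0.31). Dgat2, which makes triglyceride from the diacylglycerol that lipins supply, fell by 0.83 (SE 0.17, limma adjusted p = 0.0409), with 4195 to 5136 in sham and 1829, 2401, 3492 and 3016 after hepatectomy. Fkbp11, a prolyl isomerase of the secretory pathway in the same family as Fkbp5, rose by 1.58 (SE 0.33, limma adjusted p = 0.0465). The other lipin genes, singled out after their values were seen, did not share the Lpin1 values: Lpin2 was at 2676 to 3570.1 in sham and 1288 to 3894 after hepatectomy (log2 fold change -0.24, SE 0.28), and Lpin3 at 45.0 to 63.2 and 60.5 to 130.4 (0.55, SE 0.27). Whether their fold changes differ from that of Lpin1 was not tested.

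Each of the calls named from these lists was lost when at least 1 library was left out. Leaving out any 1 of the 4 sham libraries ended the averaged calls for Cdkn1a, Tat, Angptl4, Hsd11b1, Mt4, Gstm3, Srxn1, Nqo1, Dgat2 and Fkbp11, with limma adjusted p-values up to 0.201. Igfbp1 lost its averaged call without Cre-negative sham replicate 1 (0.0564) or Cre-positive sham replicate 1 (0.0518), and Gsta1 without either Cre-positive sham library or either Cre-negative hepatectomy library (up to 0.0877). Within genotypes, Igfbp1 lost its call in Cre-positive livers without Cre-positive sham replicate 1 (0.114) or 2 (0.0579), and its genotype call after hepatectomy when the first (0.0589) or the other (0.0548) sham library lacking Cre, or Cre-negative hepatectomy replicate 1 (0.084), was left out. The Cre-negative calls of Angptl4 (up to 0.322) and Gsta1 (up to 0.179) were lost without any 1 of the sham or Cre-negative hepatectomy libraries. With no filter on low values the averaged calls of Cdkn1a, Tat, Gsta1, Gstm3, Nqo1, Dgat2 and Fkbp11 were lost (0.0593 to 0.123), and with median-of-ratios scaling those of Angptl4, Mt4, Srxn1, Nqo1 and Fkbp11 (0.0544 to 0.0814).

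**Figure D4:**
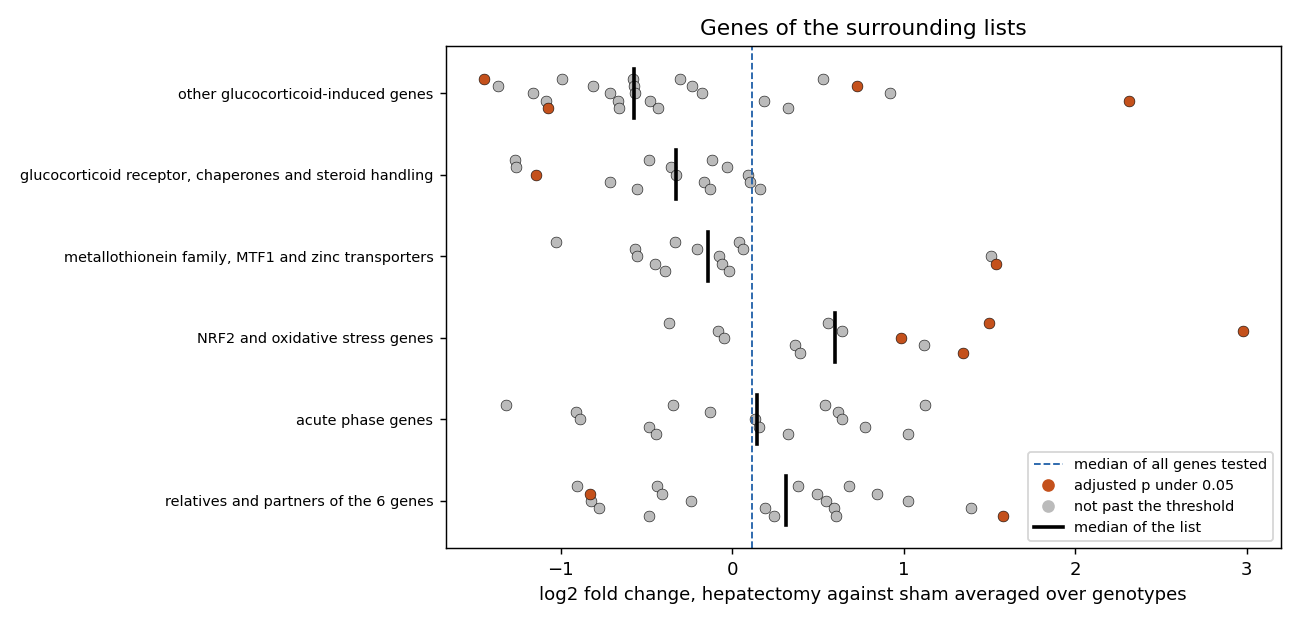
Log2 fold change for hepatectomy averaged over genotypes (horizontal axis, log2(signal + 1) scale) of every tested gene in each of the 6 lists around the 6 genes; points are genes, orange where limma passed, black bars the list medians and the dashed line the median of all genes tested. The NRF2 list has a median of 0.60 with 4 genes past the threshold, and the glucocorticoid-induced list a median of -0.57 with 2 genes on each side.

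The genes most like each member over the 8 libraries were found by Pearson correlation of log2(signal + 1) among 12164 genes whose mean signal reached 10, given as a description of libraries that share groups and processing. For Sgk1 they were Nr3c2 (r = 0.909), Midn (0.888) and Jun (0.887). Nr3c2, the mineralocorticoid receptor, was at 52.4 and 51.5 in Cre-negative sham and between 20.3 and 31.5 in the other 6 libraries, and Jun, an immediate early transcription factor, at 280 and 177 against 50.7 to 116. For Lpin1 they included Ankrd44 (0.982) and 1500017E21Rik (0.980). For Fkbp5 they were Gsk3b (0.986), Azgp1 and Ceacam1 (both 0.974), and for Tsc22d3 Paqr7 (0.955), Amacr (0.943) and 2810006K23Rik (0.942). For Mt1 they were Myo15b (0.973), Rabl5 (0.968) and Bcdin3d (0.965), and for Mt2 Naaa (0.972), Lrrc20 (0.958) and Psmd11 (0.951). The correlation of Mt1 with Mt2, r = 0.47, lay below all of these. Among the 6 genes the correlations ran from -0.82 (Lpin1 with Mt1) to 0.64 (Fkbp5 with Lpin1).

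Markers of other cells moved with some groups. The 6 macrophage markers measured summed to 3385 and 3390 in Cre-positive hepatectomy and to 1123 to 1905 in the other libraries. The 7 stellate cell markers summed to 2087 to 2903 in sham and 1280 to 1966 after hepatectomy, and the 6 sinusoidal endothelial markers to 2402 to 3227 and 1186 to 2547. Of the 7 stellate cell markers, 2 had a positive log2 fold change averaged over genotypes. Erythroid markers reached 16164 in 1 Cre-positive hepatectomy library and lay between 2643 and 6785 in the other 7. The 5 cholangiocyte markers summed to 1751 in 1 Cre-positive hepatectomy library and to 399 to 714 in the other 7; all 5 had a positive log2 fold change for hepatectomy in both genotypes, with 0 past the limma threshold (1 at an unadjusted p under 0.05 averaged over genotypes). The 5 adipocyte markers, for another tissue rich in Lpin1 and Fkbp5, summed to at most 69.2, with Lep and Retn under 1 in both sham groups. The part of the macrophage, stellate, endothelial, erythroid and cholangiocyte markers in the values of the 6 genes was not tested.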

How the data were processed

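Livers were profiled by RNA sequencing of total RNA (Trizol, column with DNase, TruSeq kit), per the labels' protocols. The deposited tables give gene and isoform values as a normalized signal made by the authors; TopHat, Cufflinks and the builds mm9 and NCBIM37 stand in the submitters' processing notes, without versions. The normalization and the strandedness are not given in the sources used here. Signal is not a count, depth is unknown, and no intervals or floors from counts are given. A listed 0 may mark an estimate that failed: albumin (Alb) is at 0 in 7 of the 8 libraries. Log2(signal + 1) of the 16443 genes whose mean signal reached 1 entered limma 3.58.1 (R 4.3.3), with 1 mean per group, an intensity trend, 4 residual and 3.25 prior degrees of freedom, two-sided tests, Benjamini-Hochberg adjustment and a threshold of 0.05. Groups came from sample titles. Fold changes on this scale understate changes of low genes. The code was tested on simulated data. Promoter letters are RefSeq's (GRCm38.p6); all 6 genes matched, with 13 windows. GC content came from GENCODE transcripts for 10909 of 12165 genes whose mean signal reached 10.

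The 6 genes, the lists and the alternatives (pseudocount 5, no filter, median-of-ratios scaling, each library left out) were chosen with earlier results of these data known; Igfbp1 and Cdkn1a in particular were known from them. Named from each list were the 4 members at most that passed and had the lowest adjusted p in the averaged contrast, otherwise up to 2 of the highest mean signal, and members past the threshold in other contrasts; for each of the 6 genes the 3 most correlated genes, of which 1 is not reported here; and isoforms of at least 5% of the gene. Symbols in the lists but not in the table (H6pdh, Ctr1, Dullard, Adgre1, Acta1) were left out.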

Additional observations from a re-analysis of the deposited data

Results flagged for a closer look

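Igfbp1, of the list of other glucocorticoid-induced genes, lay on opposite sides of sham after hepatectomy in the 2 genotypes. Both Cre-negative hepatectomy libraries (7883 and 8615) lay above both Cre-negative sham libraries (6883 and 5838), and both Cre-positive hepatectomy libraries (436 and 480.3) lay below both Cre-positive sham libraries (5192 and 3788). The difference of the responses was -3.65 on the log2 scale (SE 0.35), and by limma it did not pass over all genes (adjusted p = 0.0631).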

How the results depend on the processing

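No paired analysis was possible because the labels number the samples 1 to 8 and share no replicate number between groups. The 738 genes called for hepatectomy averaged over genotypes were 405 with no filter and 140 (without Cre-positive sham replicate 1) to 5408 (without Cre-positive hepatectomy replicate 1) with 1 library left out. In Cre-negative livers 183 became 103 with no filter, 77 with median-of-ratios scaling and 0 (limma, 1745 at an unadjusted p under 0.05, without Cre-negative sham replicate 2) to 1698 (without Cre-positive hepatectomy replicate 1). In Cre-positive livers 155 became 7 with no filter and 1 (without Cre-positive sham replicate 1) to 3507 (without Cre-positive hepatectomy replicate 1). For genotype in sham 1 became 0 with no filter (limma, 356 at an unadjusted p under 0.05) and 0 to 19 with a library left out. After hepatectomy 3 became 22 with no filter and 0 to 2217, and for the difference of responses 2 became 0 with pseudocount 5 (limma, 1359 at an unadjusted p under 0.05), 1 with no filter and 0 to 771. Of the 6 genes, 1 was called in the averaged contrast, 0 with no filter (limma, 3 at an unadjusted p under 0.05), 2 with scaling and 0 to 4 with a library left out. Leaving out a library outside a contrast cannot move the fold changes in it, only the shared estimate of spread and the genes tested. The part of any 1 library in these counts was not tested.

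The Sgk1 log2 fold change for genotype in sham, -1.36, did not pass by limma over all genes. It ran from -1.56 to -1.15 with 1 library left out. Averaged over genotypes, leaving out 1 library gave -0.82 to -0.62 for Sgk1, -0.92 to -0.57 for Fkbp5, -1.72 to -1.19 for Lpin1 and 0.39 to 0.65 for Mt1, all of 1 sign. It gave -0.26 to 0.54 for Tsc22d3 and -0.01 to 0.40 for Mt2, which changed sign. Of 396 alternative values of the 6 genes 369 moved by less than the spread between replicates, though many could not do otherwise. Using no filter leaves a fold change as it was, and so does leaving out a library outside the contrast. In the averaged contrast, leaving out 1 library always moves a value by less than that spread. The count is therefore no measure of stability. Of 197 values of the named list genes, 100 kept their side of the threshold, 96 lost it and 1 gained it. The limma fit with 1 library left out takes the lone library to vary like the other groups. With depth unknown, no limit from counting could be given.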
